A study of Gallus gallus with 24 samples.

Results

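The genes described here were those whose messenger RNA was higher in chick midgut mesoderm carrying Hoxd13 than in control midgut, while the control hindgut differed little from the control midgut. They were chosen on L, the base-2 logarithm of CPM plus 1, where CPM is the count scaled to the library total. A member had a mean L in Hoxd13 midgut 1, 2 and 3 at least 0.7 above the control midgut mean, had all 3 of these libraries above all 4 control midgut libraries, and had mean hindgut and midgut L within 0.3 of each other. Of the 17136 genes in the table, 147 met this rule. Hoxd13 midgut 4 was not used in the choice.

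Hoxd13 encodes a homeodomain transcription factor of the posterior end of the Hox clusters. In vertebrate embryos, posterior Hox genes are active in the mesoderm of the hindgut and in the limb bud, and the mesoderm in turn shapes the overlying gut epithelium. The members are genes that differed with Hoxd13 misexpression in the midgut and differed little between the control regions.

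The samples were intestinal mesoderm of chick embryos, freed of endoderm by hand. The first group was midgut with RCAS-Hoxd13, the second was hindgut with RCAS-mGFP and the third was midgut with RCAS-mGFP, and each had 4 libraries. RCAS, a retroviral vector for birds, spreads among dividing cells, and mGFP is the fluorescent reporter that the controls carry in place of Hoxd13. Per the labels, all embryos received a construct by electroporation in ovo at stage HH 17, aimed at mesoderm of midgut level, and the hindgut libraries carry the RCAS-mGFP label all the same. The labels name embryonic days 12 and 14, but the tables for these ages differed in 0 of 205632 values, so they were used as 1 set of 12 libraries of unknown age. The labels do not give the sex of the embryos or say whether libraries came from separate embryos, so p-values measure the spread between these libraries, which may be technical.

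Library totals ran from 7607185 to 10497615 counts in Hoxd13 midgut, from 9384064 to 10745459 in control hindgut and from 8389592 to 10880695 in control midgut. Hoxd13 midgut 4 stood apart. Counts were found for 13480 genes in this library and for 14565 to 14832 genes in each of the remaining 11. Its top 100 genes by count made up 34.0% of its total, where those of the remaining libraries made up 21.7% to 24.1%. The files give genes by Ensembl ID only and 0 of the IDs matched the reference gene table. The 11 gene lists and 7 cell type marker lists therefore had 0 matched members, and neither the tissue label nor the level of Hoxd13 was checked by name. IDs are printed for the members with the largest and the second largest difference, and the other members are given by rank in that order.

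In bulk tissue a higher level can come from more cells of a type or from more RNA per cell, and these cannot be told apart. The difference in mean L between Hoxd13 midgut 1 to 3 and control midgut reached 4.88 and had a median of 0.855 over the 147 members. It was at least 2 in 17 members, at least 1 in 50 and under 0.8 in 59. The members just above the threshold of 0.7 included values of 0.701 and 0.702, and the 3 genes just below it, which met the other conditions, were at 0.698, 0.697 and 0.695. Without the condition on the hindgut 404 genes met the rule, of which 241 were at least 0.3 higher in hindgut and 16 at least 0.3 lower. The members nearest the hindgut limit were at 0.298, 0.293 and 0.291, and the nearest genes left out were at -0.301, 0.302 and 0.302. The members spanned a wide range of abundance, from 0.968 to 2408 CPM in the mean of Hoxd13 midgut 1 to 3, with a median of 14.1 CPM. The median count of a member was 113 to 144 per library in Hoxd13 midgut, 60 to 74 in control hindgut and 46 to 64 in control midgut.

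**Figure D1:**
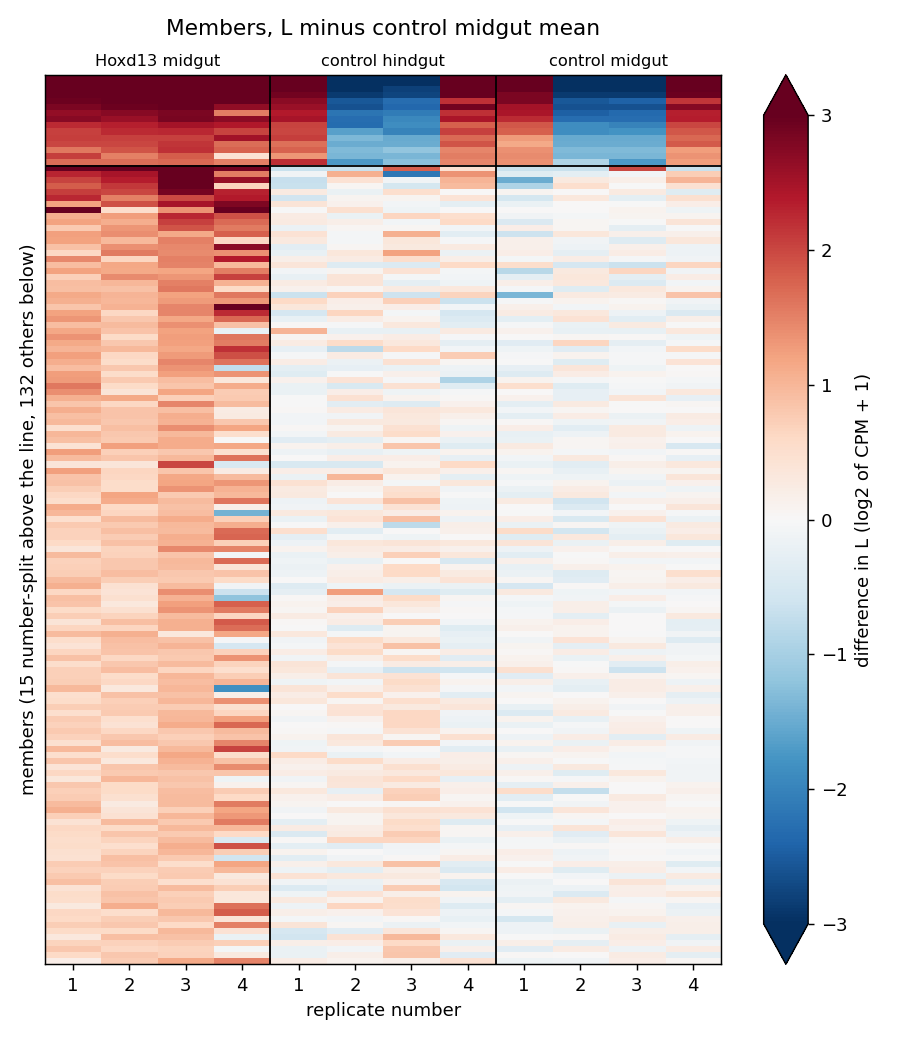
Difference in L (log2 of CPM + 1) from the control midgut mean for each of the 147 members (rows) in the 12 libraries (columns), with colours saturated at -3 and 3. The 15 rows above the line are low in control libraries 2 and 3 of both regions and high in control libraries 1 and 4, and the 132 rows below it are mostly pale in the controls and red in Hoxd13 midgut.

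The largest differences came with a split inside both control groups. The first member, ENSGALG00000035998, was at 631, 784, 804 and 1159 CPM in Hoxd13 midgut 1, 2, 3 and 4. In control hindgut it was at 506, 0.210, 1.72 and 357 CPM, and in control midgut at 546, 0, 0.643 and 431 CPM. It was thus abundant in controls 1 and 4 of both regions and almost without counts in controls 2 and 3. The second member, ENSGALG00000033705, was at 244.5, 269, 275 and 262 CPM in Hoxd13 midgut, and its level there was 263 ± 13.3 CPM (SD, n = 4). It was at 232, 0, 0.862 and 205 CPM in control hindgut and at 209.9, 0, 0.368 and 213 CPM in control midgut. The midgut libraries 1 and 4 lay just under the lowest Hoxd13 library, while libraries 2 and 3 set the low mean.

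This split was shared by 15 members, counted where controls 1 and 4 of both regions were all at least 1 in L above controls 2 and 3. They included 8 of the 10 members with the largest differences, and the lowest of them was ranked 23. Over all 16067 genes with a count, 32 showed the split, or 0.199%, and the other 17 were not members because their Hoxd13 and control midgut libraries overlapped. In the 15 members the level ran from 2.50 to 1159 CPM in the Hoxd13 midguts, from 5.01 to 546 CPM in controls 1 and 4 and from 0 to 14.5 CPM in controls 2 and 3, and 12 of the 15 stayed under 1 CPM in all 4 libraries numbered 2 and 3. The mean L of Hoxd13 midgut 1 to 3 was 0.202 to 0.507 above the higher of control midgut 1 and 4, short of the 0.7 that the rule asks. When the rule was applied without control midgut and hindgut 2 and 3, a choice made after seeing the data, 233 genes met it. They included 87 of the 147 members, and 1 of the 15. Without any 1 control library 114 to 163 genes met it, and these included 96 to 122 of the 147 members and 0 to 3 of the 15. These 15 are called number-split members below. The sources used here give neither the chromosomes of these genes nor the sex of the embryos, so whether sex or another property of the embryos moves with the split was not tested. For these 15 a difference that goes with Hoxd13 and one between the embryos of single libraries cannot be told apart.

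**Figure D2:**
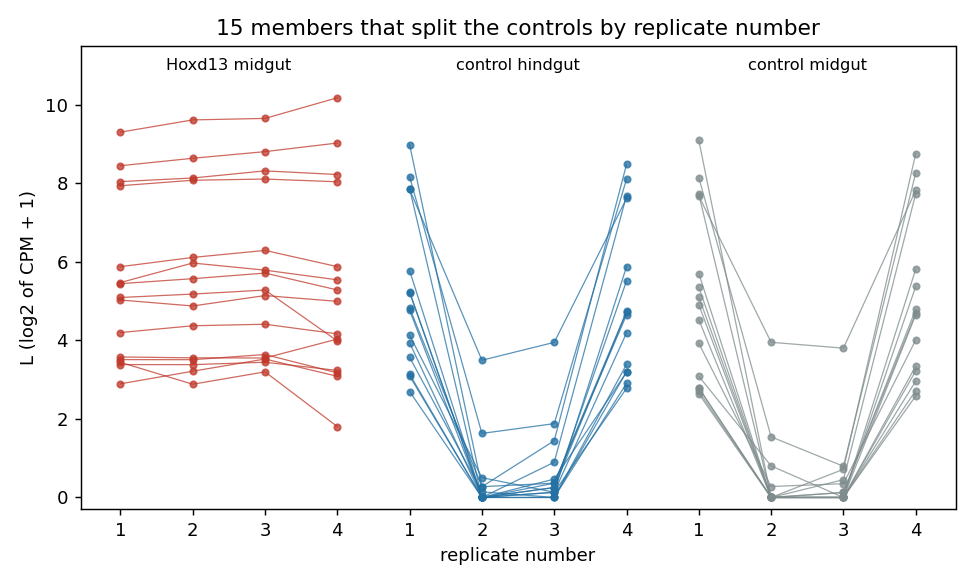
L (log2 of CPM + 1) of the 15 number-split members in each library, 1 line per gene and group. In Hoxd13 midgut all 4 libraries lie at a similar height for most genes, whereas in both control groups the lines drop at replicates 2 and 3, to 14.5 CPM at most.

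The other 132 members were more even among the controls. Their median difference from the control midgut mean was 0.780, 0.794, 0.990 and 0.966 in Hoxd13 midgut 1, 2, 3 and 4, and 0.00632, 0.153, 0.2998 and 0.0130 in control hindgut 1, 2, 3 and 4. In the control midguts it lay between -0.0394 and 0.0472. The choice of members set the high medians of Hoxd13 midgut 1 to 3 and the low ones of the controls. Hoxd13 midgut 4, which was not used in it, had a median above that of control hindgut 3, the highest control. Over all genes with a count the same median was 0.107, 0.0885, 0.116 and -0.135 in the Hoxd13 midguts. The median spread of a member's L within a group was 0.257 in Hoxd13 midgut 1 to 3, 0.267 in control hindgut and 0.227 in control midgut (SD). For the number-split members it was 0.135, against 2.55 in control hindgut and 2.65 in control midgut.

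**Figure D3:**
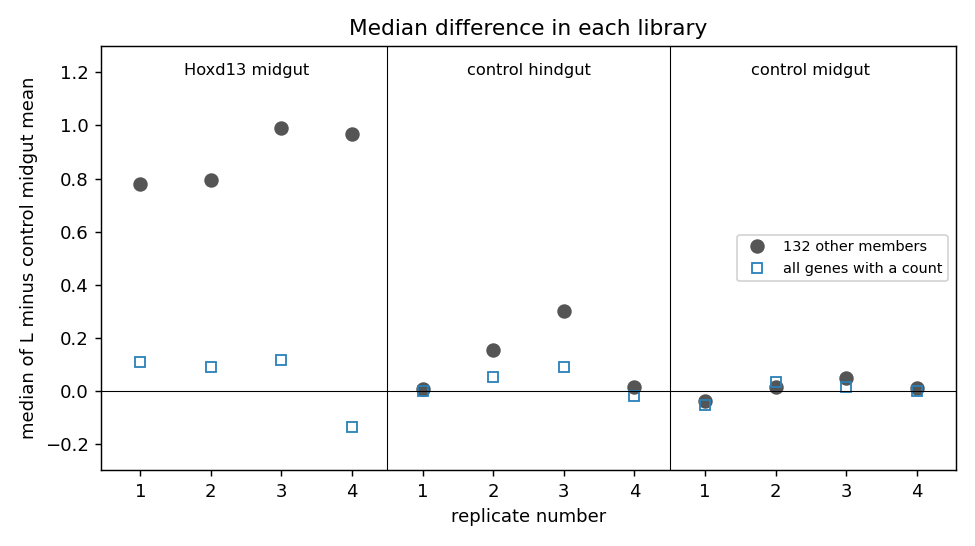
Median over genes of L minus the control midgut mean, in each library. Filled circles are the 132 members without a number split of at least 1 in L, and open squares all 16067 genes with a count. The members' medians are 0.780 to 0.990 in Hoxd13 midgut and at most 0.2998 in any control library, an order that the choice of members set for all libraries but Hoxd13 midgut 4.

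Among the members without the split, the one ranked 3 had the largest difference. It was at 11.8, 25.2, 46.7 and 10.5 CPM in Hoxd13 midgut 1, 2, 3 and 4, at 0, 0, 4.5 and 1.17 CPM in control hindgut, and at 0, 0, 5.24 and 0 CPM in control midgut. All Hoxd13 libraries were above all controls, and the controls numbered 3 were the highest of their groups. The member ranked 8 was at 20.8, 23.9, 51.2 and 11.96 CPM in Hoxd13 midgut, at 3.16, 8.28, 0 and 10.3 CPM in control hindgut and at 2.46, 2.66, 3.22 and 6.44 CPM in control midgut. The Hoxd13 midguts did not overlap the controls here either, but Hoxd13 midgut 4 lay next to control hindgut 4.

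The member ranked 11 was at 43.1, 54.2, 117 and 65.2 CPM in Hoxd13 midgut. It was at 5.68, 13.7, 9.10 and 20.9 CPM in control hindgut and at 2.86, 12.4, 11.3 and 20.9 CPM in control midgut, so library 1 was the lowest and library 4 the highest in both control groups. The member ranked 14 had 27.0, 25.9, 48.0 and 32.3 CPM in Hoxd13 midgut, against 7.07, 4.82, 8.52 and 5.75 CPM in control hindgut and 6.11, 5.75, 7.08 and 4.17 CPM in control midgut. The means were 33.3 ± 10.2 CPM in Hoxd13 midgut, 6.54 ± 1.61 CPM in control hindgut and 5.78 ± 1.21 CPM in control midgut (SD, n = 4 each).

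The member ranked 20 was at 11.6, 19.3, 29.0 and 37.2 CPM in Hoxd13 midgut 1, 2, 3 and 4. Its control hindguts lay between 3.41 and 6.14 CPM and its control midguts between 3.75 and 5.25 CPM. The Hoxd13 midguts were above all controls, while the ranges of the control groups overlapped. The most abundant member had one of the smaller differences and was ranked 139. It was at 2251, 2111, 2861 and 5157 CPM in Hoxd13 midgut, at 1639, 1592, 1941 and 1318 CPM in control hindgut and at 1407, 1582, 1563 and 1299 CPM in control midgut. Hoxd13 midgut 4 was far above the other 3 libraries of its group, which were themselves above all controls. The member ranked 22 was uneven, at 11.1, 0.572, 1.81 and 108 CPM in Hoxd13 midgut and at most 0.524 CPM in any control. Hoxd13 midgut 2 came close to control hindgut 2 in this gene, and its group mean rests on Hoxd13 midgut 1 and 4.

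**Figure D4:**
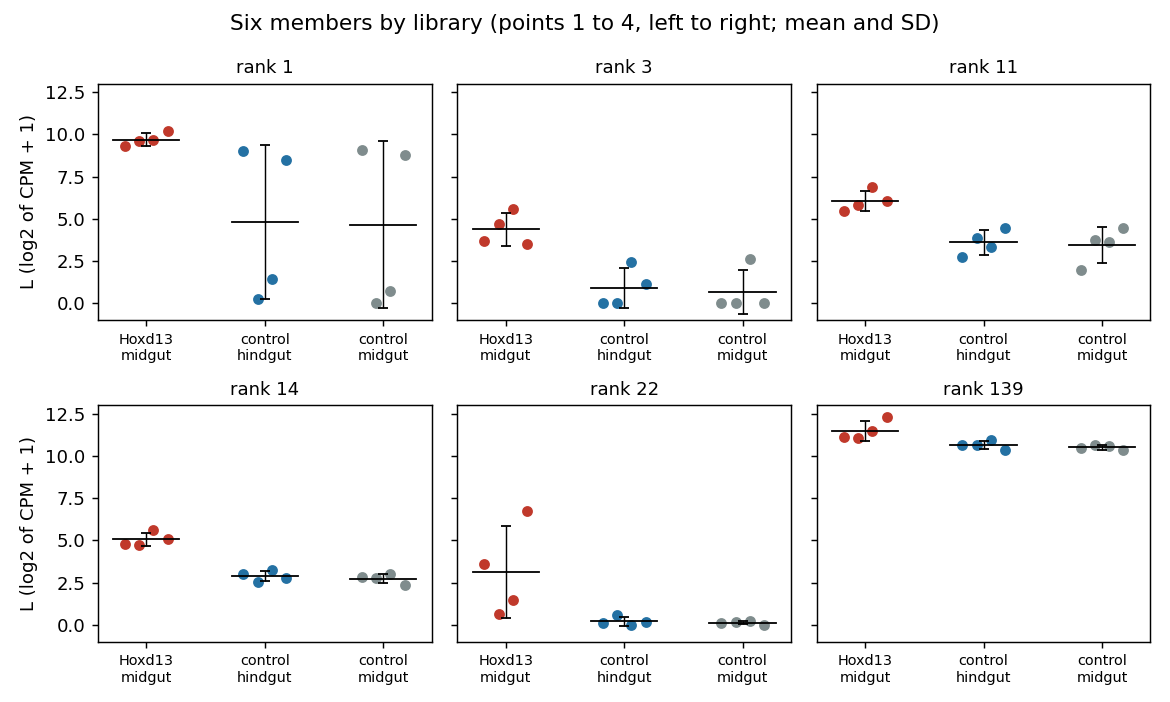
L (log2 of CPM + 1) of 6 members by rank, with 1 point per library (replicates 1 to 4 from left to right), the group mean as a line and the SD as a bar. In all 6 members all 4 Hoxd13 libraries lie above all controls. Rank 1 is also split within both control groups. Rank 22 has 108 CPM in Hoxd13 midgut 4 and 0.572 CPM in Hoxd13 midgut 2, close to control hindgut 2 at 0.524 CPM.

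Hoxd13 midgut 3 held the highest level of the 3 libraries that chose the members in 93 of the 147, Hoxd13 midgut 1 in 26 and Hoxd13 midgut 2 in 28. Over all genes with a count Hoxd13 midgut 3 was the highest of the 3 in 32.7%. It was the lowest of the 3 in 8 members, against 4962 of the 16067 genes with a count. The rule used the values of these 3 libraries, so nothing is read from their order.

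Hoxd13 midgut 4, the library that the rule did not use, was above all 4 control midgut libraries in 124 of the 147 members, within their range in 13 and below all of them in 10. Over all genes with a count it was above all control midguts in 29.3% and below all of them in 43.5%. Its median difference from the control midgut mean was 1.08 over the members and -0.135 over all genes, in L. The difference was at least 0.7 in 99 members, or 67.3%, against 13.7% of all genes. It was above all 8 control libraries in 103 members, against 23.1% of all genes. The control midguts used here also chose the members, so low control values by chance favour a difference. The mean of the control hindguts, which the choice only held near the midgut mean, gave a median difference of 0.976 over the members and -0.174 over all genes. Without the number-split members, Hoxd13 midgut 4 was above all control midguts in 113 of 132, with a median difference of 0.966.

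Squared differences between Hoxd13 midgut 4 and Hoxd13 midgut 1, 2 and 3 averaged 78 to 124 times counting error. Those 3 were 17.2 to 32.4 times apart, control midguts 15.7 to 53.1 and control hindguts 22 to 107. The edgeR quasi-likelihood test of Hoxd13 midgut 4 alone against control midgut used Benjamini-Hochberg adjustment over all 12931 genes tested. It assumed that a lone library varies like the other groups, which 1 library cannot show. Its adjusted p-values and SEs rest on that assumption. It called 3402 genes higher (26.3%) and 3861 lower (29.9%), at an adjusted p under 0.05. Of the 147 members 138 passed the filter on low counts. Of these, 83 were called higher and 3 lower, with log2 fold changes of 0.49 to 4.16 and a median of 1.75 among the 83. Of the 15 number-split members edgeR called 0 in either direction, with 0 at an unadjusted p under 0.05. DESeq2 and limma voom called 0 of them higher. The split by which they were counted widens the control spread that these tests use, so nothing is read from these counts of 0. Without control midgut and hindgut 2 and 3, edgeR called 6 of the 15 higher in Hoxd13 midgut 4 than in the remaining control midguts. In that fit, chosen after seeing the data, 22.5% of all genes tested were called higher. The member ranked 14 had an edgeR adjusted p of 6.55e-05 and was higher by 2.70 ± 0.32 on the log2 scale (SE), and the most abundant member had one of 1.18e-05 and was higher by 2.04 ± 0.16. The member ranked 20 was higher by 3.28 ± 0.35 on that scale, at an edgeR adjusted p of 3.85e-05, and the one ranked 18 by 3.01 ± 0.48, at 0.000364. The member ranked 12 did not pass, with 0.95 ± 0.93 on the log2 scale and an edgeR adjusted p of 0.408. The library held 4.99 CPM of that gene, against 12.4, 15.4 and 38.7 CPM in Hoxd13 midgut 1, 2 and 3. Against control hindgut the same library had 76 of the 138 members higher, where 25.7% of all genes tested were higher, and 3 lower, where 30.2% were lower.

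The 3 members that were lower in Hoxd13 midgut 4 went against the choice. The member ranked 73 was at 31.3, 24.2 and 29.4 CPM in Hoxd13 midgut 1 to 3 and at 4.99 CPM in Hoxd13 midgut 4, against 15.1 ± 0.944 CPM in control midgut (SD, n = 4). The member ranked 87 was at 33.4, 24.9 and 37.0 CPM in Hoxd13 midgut 1 to 3 and at 6.97 CPM in Hoxd13 midgut 4, against 17.6 ± 1.77 CPM in control midgut (SD, n = 4). The member ranked 102 had 0 counts in Hoxd13 midgut 4 and 3.43 to 6.06 CPM in the other Hoxd13 midguts. Counts of 0 were found in 4 members in this library. The rule allows no count of 0 in Hoxd13 midgut 1 to 3, since these libraries must lie above all control midguts. The lower number of genes with counts in Hoxd13 midgut 4 moved with these values, and its part in them was not tested.

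**Figure D5:**
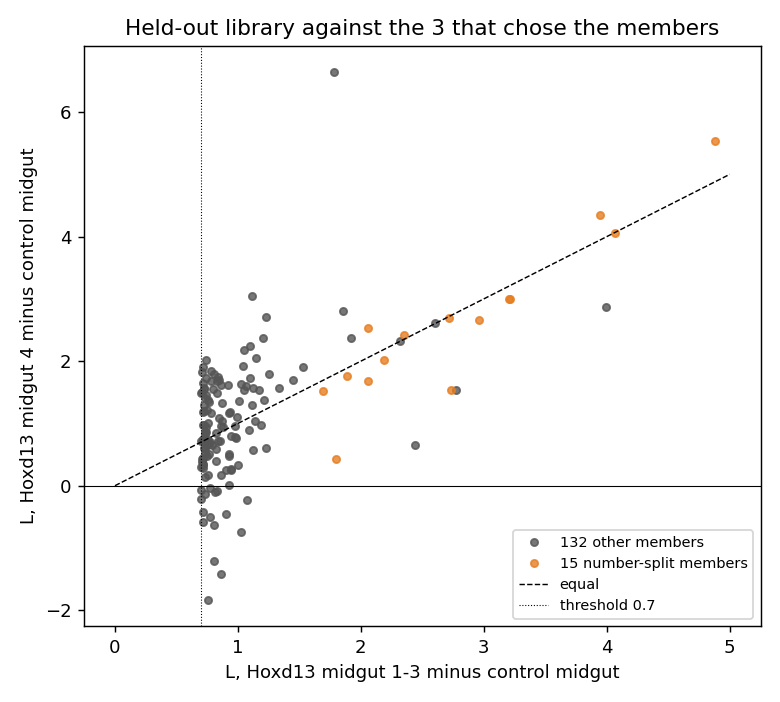
Difference in L from the control midgut mean, in Hoxd13 midgut 4 (vertical axis) against the mean of Hoxd13 midgut 1 to 3 (horizontal axis). Grey points are the 132 members without a number split of at least 1 in L, and orange points the 15 with it. Most points lie above 0 on the vertical axis, 131 of 147, while 16 lie below it.

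With all libraries in 1 fit of 3 groups, edgeR called 70 of the 138 tested members higher in Hoxd13 midgut than in control midgut (adjusted p under 0.05), where 2.54% of all genes tested were higher. The rule used this contrast, so nothing is read from that count. None of the 15 number-split members was among the 70, and their split again widens the control spread that the test uses. With single libraries left out the count ran from 4 to 91. It became 5, 12, 4 and 6 when control midgut 1, 2, 3 and 4 was left out in turn. Of all genes tested 0.329%, 0.481%, 0.283% and 0.267% were then higher. Without control hindgut 1, 2, 3 and 4 the count was 14, 13, 82 and 51, where 0.559%, 0.529%, 2.76% and 1.61% were higher. Without Hoxd13 midgut 2, 3 and 4 it was 59, 5 and 36, where 2.54%, 0.276% and 1.41% were higher. Without Hoxd13 midgut 1 it was 91, where 1305 genes were higher. The lowest counts thus came with low shares of all genes. At an unadjusted edgeR p under 0.05, 104 to 117 members were higher in these 12 fits, against 113 with all libraries. Without control midgut and hindgut 2 and 3 edgeR called 0 members higher, and 0 of all genes tested higher. At an unadjusted p under 0.05, 96 members and 698 genes were higher.

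Against control hindgut, 42 of the 138 tested members were called higher in Hoxd13 midgut by edgeR (adjusted p under 0.05), where 1.94% of all genes tested were higher, and the rule again used nearly all of these libraries. Leaving out control midgut 3 or 4 made this count 27 or 26, where 1.13% of all genes tested were higher in either fit. Leaving out control hindgut 1, 2 or 4 made it 12, 13 or 12, where 0.712%, 0.828% or 0.627% were higher. Leaving out Hoxd13 midgut 1 or 3 made it 83 or 20, where 10.2% or 1.13% were higher. Hoxd13 midgut 1 to 3 were all above all control hindguts in 100 of the 147 members, against 11.7% of all genes with a count. All 4 Hoxd13 midguts were above all 8 controls in 81 members, against 3.81% of all genes. The rule put Hoxd13 midgut 1 to 3 above all control midguts and held the hindgut mean near the midgut mean. The choice thus largely set both of these counts, and nothing is read from them. Between control hindgut and control midgut 0 members were called by edgeR, with an adjusted p under 0.05, where 3.42% of all genes tested were called. The count at an unadjusted p under 0.05 was also 0, as it was at an adjusted p by DESeq2 and by limma voom. These fits did not pair the libraries by number. With the replicate block and only the control groups fitted, edgeR called 0 members and 11.8% of all genes tested. At an unadjusted p under 0.05, 2 members were then higher in hindgut. The rule bounded this contrast. Within that bound 116 members (78.9%) were higher in hindgut than in midgut by mean L and 31 lower, against 55.7% of all genes higher. The median was 0.145 over the 147 and 0.0308 over all genes. The rule also asked for control midguts below Hoxd13 midgut 1 to 3, which favours low midgut values, so nothing is read from this tilt.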

How the data were processed

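The deposited values were estimated counts per Ensembl gene, given by the authors as whole numbers, and the submitters' processing notes list Salmon, DESeq2 and the build GRCg6a with no version or role. Which annotation release was counted is not given in the sources used here. Members were found on log2(CPM + 1) with column totals. Members, gene lists and tests were chosen with earlier results of these data known. The rule for named genes took, without symbols, the 2 members with the largest difference whose mean L in Hoxd13 midgut 1 to 3 was at least 3. The other members described were chosen after their values were seen. The test across genes was that of edgeR 4.0.16 in R 4.3.3 (quasi-likelihood F test, robust, TMM, filterByExpr with a count minimum of 10), with all 12 libraries in the fit, and the filter left 12931 genes. Hoxd13 midgut 4 was tested as a group of its own in a fit of 4 groups. Alternatives used DESeq2 1.42.0, limma 3.58.1 and those named in the closing section. The depth limits low genes, since 19 members had a mean L under 2 in Hoxd13 midgut 1 to 3. The squared differences between replicates averaged 15.7 to 124 times what counting error gives, so no library was taken as a repeat of another. Same-numbered control hindgut and control midgut libraries had correlated deviations (0.489, 0.435, 0.528 and 0.531), so their numbers were read as pairs, from the data. The main fits did not use these pairs, which entered only as the replicate block among the alternatives. The numbers of Hoxd13 midgut were not read as pairs, at -0.232 to 0.178 with control midgut and -0.358 to 0.121 with control hindgut. The replicate block nonetheless used the numbers of all libraries in a fit, those of Hoxd13 midgut included.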

Additional observations from a re-analysis of the deposited data

Results flagged for a closer look

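In the member ranked 3, control midgut 3 lay far from its group, at 2.64 in L while the other 3 control midguts had 0 counts. Of 48 sets of 4 values examined, this was the 1 flagged. With the other 3 values tied at 0, any value above 0 would have been flagged. The rate of about 1 in 20 that chance gives holds for values without such ties, so nothing is read from this flag.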

How the results depend on the processing

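The test of Hoxd13 midgut 4 alone called 77 to 89 members higher (83 as reported) in 18 alternatives, which shared 73 to 83 members with those 83. With the replicate block it called 77, of which 73 were shared. Hoxd13 midgut 4 was above all control midguts in 113 to 128 members (124) in 10 alternatives. Over all genes with a count it was so in 29.3% to 36.3%. Its median difference of 1.08 was 1.27 with TMM-scaled totals, 1.21 and 0.939 with pseudocounts of 0.5 and 2, 0.966 without the number-split members, 0.850 without control midgut 2 and 3 and 1.06 to 1.10 without single libraries. The members higher in Hoxd13 midgut than in control midgut (70) were 33 without a filter and 39 with the replicate block. With only the compared groups fitted they were 20. The share of all genes tested (2.54%) was 0.971%, 1.47% and 0.656% in these fits. Without control midgut and hindgut 2 and 3 the count was 0, with 0 of all genes. Without single libraries it was 4 to 91. The members higher than in control hindgut (42) were 84 with DESeq2, 25 with the replicate block and 12 with only the compared groups fitted. The share of all genes tested (1.94%) was 7.6%, 1.08% and 0.537% in these fits. Without controls 2 and 3 the count was 0, with 0.114% of all genes. Without single libraries it was 12 to 83, with 0.627% to 10.2% of all genes. The count of members called between the control regions was 0 in all 19 alternatives, the replicate block included. Of all genes tested 2.19% to 11.8% were called in them. The rule (147 genes) gave 81 with TMM-scaled totals, 537 and 50 at rises of 0.5 and 1, 93 at a regional limit of 0.2, 248 with Hoxd13 midgut 4 included, 233 without controls 2 and 3, and 114 to 272 without single libraries, with 272 and 258 without Hoxd13 midgut 1 and 2. The 81 genes under TMM-scaled totals included 71 of the 147 members, and 9 of the 15 number-split ones. The cause of these changes was not tested. The alternatives that leave out control libraries 2 and 3, control libraries 1 and 4 or the number-split members were chosen after seeing the data. The test of Hoxd13 midgut 4 cannot be made without that library.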

Other observations

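Over all 16067 genes with a count, controls 1 and 4 of both regions lay above controls 2 and 3 in 373 genes and below them in 897. With a gap of at least 1 in L the numbers were 32 and 2. In 26 of the 32 genes all 4 Hoxd13 midguts were above the midpoint of the gap, on the side of controls 1 and 4. Of the 2 genes with the opposite gap, 0 had all 4 Hoxd13 midguts on that side. The 32 genes include the 15 number-split members. For these the rule asked that Hoxd13 midgut 1 to 3 lie above all control midguts. The 32 genes, however, were counted on the control libraries alone, so the choice of members did not set the count of 26. Its cause was not tested. Summed over the 15 number-split members, CPM came to 1760, 2036, 2171 and 2486 in Hoxd13 midgut 1, 2, 3 and 4, to 1497, 13.3, 21.4 and 1264 in control hindgut and to 1461, 17.4, 15.2 and 1398 in control midgut.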
